A study of Mus musculus with 5 samples.

Results

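The cytosolic ribosomal protein genes were taken from the deposited peak table as the symbols made of Rpl or Rps, digits and at most 1 closing letter (a, l or x), with Rplp0, Rplp1, Rplp2 and Rpsa added and pseudogene names left out. The rule found 56 of the 25017 genes to which the table assigns a peak, 34 of the large and 22 of the small subunit. They carry 119 of its 85275 peaks. Each gene is described by 1 peak, the one with the highest mean signal over the 4 H3K4 libraries. Of the 83 gene symbols that fit the rule in RefSeq, the other 27 have no peak under their own name here, among them Rplp2, Rpsa, Rpl3, Rpl10 and Rps3.

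CUT&RUN was used to read methylated H3K4: an antibody finds the mark on chromatin and a nuclease that it recruits cuts out the DNA nearby for sequencing. Cardiomyocytes from mice at postnatal day 1 were treated for 72 h. A pair of libraries came from cells given Kdm5b-ShRNA-IL, a hairpin RNA against the H3K4 demethylase gene Kdm5b (called knockdown here), and a pair from cells given Control-ShRNA-IL (called control). A single negative control library also came from cells given Control-ShRNA-IL. The labels do not spell out IL, the methylation state that the antibody reads, the antibody of the negative control, the strain or the number of hearts per library, and H3K4 signal does not measure Kdm5b mRNA, so the knockdown itself was not checked. The cell type label counts from P1 to P5 over the 5 samples while the protocol gives day 1 for all. If that label were the age, it could not be told apart from the treatment. The libraries of each group are called 3 and 4 after their columns.

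Every ribosome is built from ribosomal RNA and a full set of these proteins, each made from a single expressed gene in most cases, and all cells that grow need them in matching amounts. Methylated H3K4 marks the start regions of transcribed genes, and these genes are among the most strongly transcribed in heart muscle as in other tissues. Their mRNAs typically begin with a C followed by a run of pyrimidines, the TOP element, through which mTOR signalling adjusts their translation. Kdm5b removes methyl groups from H3K4, and the series title concerns its part in the expression of cell-cycle genes. The ribosomal protein genes are a set of active housekeeping genes on which the same comparison can be read.

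The start regions of 5 of the genes are printed to show what the promoters of such genes look like. They are given for the genes with the highest and the lowest ratio to the negative control in each subunit (Rpl35, Rpl39l, Rps27l and Rps16) and for the gene that passed the test in the knockdown (Rpl4). Each stretch holds 120 bases, 100 before the RefSeq start and 20 from it, 5′ to 3′, from RefSeq on GRCm38.p6. The peaks are on GRCm39, so the stretches cannot be laid on them, and none is shown to lie under a peak. On either strand 3 motifs were searched, namely TATAAA of the TATA box, the core CCGGAAG that ETS factors bind and the core AAGATGG that YY1 binds, and at the start itself a C followed by 4 or more pyrimidines. Capitals mark a match.
Rpl35 (chr2:39005112-39005231, minus strand): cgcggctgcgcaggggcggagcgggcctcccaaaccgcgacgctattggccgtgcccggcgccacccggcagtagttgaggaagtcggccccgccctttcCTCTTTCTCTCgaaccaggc
Rpl39l (chr16:10170128-10170247, plus strand): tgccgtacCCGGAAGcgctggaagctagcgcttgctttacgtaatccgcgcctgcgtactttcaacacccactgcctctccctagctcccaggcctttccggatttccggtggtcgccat
Rps27l (chr9:66945986-66946105, plus strand): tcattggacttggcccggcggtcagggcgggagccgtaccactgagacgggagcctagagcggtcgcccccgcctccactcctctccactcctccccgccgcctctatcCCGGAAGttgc
Rps16 (chr7:28350589-28350708, plus strand): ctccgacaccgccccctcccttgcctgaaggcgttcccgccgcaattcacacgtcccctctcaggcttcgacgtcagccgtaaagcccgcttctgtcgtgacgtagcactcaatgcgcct
Rpl4 (chr9:64173287-64173406, plus strand): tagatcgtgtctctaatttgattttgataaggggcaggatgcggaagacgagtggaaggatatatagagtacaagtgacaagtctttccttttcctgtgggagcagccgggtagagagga
Rpl35 starts with the run of pyrimidines. In Rpl39l and Rps27l the capitals are the CCGGAAG core, and Rps16 and Rpl4 hold none of these letters in this stretch. The pyrimidine start was sought only at the RefSeq start base itself. A run nearby, such as the one shortly before that base in Rpl4, was not counted.

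Over the whole RefSeq window of 250 bases before to 50 after the start, 43 of the 56 genes had an entry, with 54 windows. A pyrimidine start at the RefSeq start base itself stood in 20.4% of them, against 2.51% of all 32851 windows of the table. CCGGAAG stood in 35.2% against 8.86%, AAGATGG in 16.7% against 6.34% and TATAAA in 9.26% against 13.6%. The median CpG content was 7 per 100 bases against 2.33. Of 75 windows of mitochondrial ribosomal protein genes, 34.7% held CCGGAAG and 17.3% AAGATGG, and 0 had the pyrimidine start. A match is a description of the letters and does not show that a factor binds.

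Reads in peaks numbered 21285387 and 31068085 in the knockdown libraries, 18710132 and 19001373 in the control libraries and 3784381 in the negative control. Whether the paired libraries stem from different cultures is not stated, and p-values reflect library-to-library spread alone, perhaps only technical. In the main limma fit that spread was pooled over peaks of like signal, because the prior degrees of freedom came out infinite. A gene's SE thus follows its mean signal and not the spread of its own libraries, and its p-value rests on that SE. The values are CPM, reads scaled to the library's reads in peaks, which fixes each library's total. A gain or loss over the whole genome therefore cannot be read from them, nor can fewer cells of a type be told apart from less signal per cell. Of 12 cardiomyocyte marker genes 11 had a peak, and their summed signal was 1692 and 1682 CPM after knockdown, 1802 and 1791 CPM in control cells and 1504 CPM in the negative control. Only 1 of them stood 2-fold above the negative control in either group. Of these markers limma called 0 higher and 4 lower after knockdown (0 and 7 at an unadjusted p under 0.05). Over 1 peak per gene of the whole table it called 3.40% higher and 1.98% lower. Among markers of other cells, 7 of 8 epicardial genes rose (summed 517 and 516 CPM after knockdown against 421 and 414 CPM in control cells), as did 5 of 8 fibroblast genes (537 and 528 against 451 and 424 CPM) and 3 of 6 smooth muscle and pericyte genes (326 and 336 against 287 and 270 CPM). At an unadjusted p under 0.05, 7 epicardial, 6 fibroblast and 3 smooth muscle and pericyte genes were higher, and 0, 0 and 1 were lower. The negative control held 848, 569 and 268 CPM at these 3 lists. The epicardial and fibroblast sums thus lay below it in every H3K4 library, and 0 genes of the 3 lists stood 2-fold above it. Of 6 endothelial genes and of 3 blood genes with a peak limma called 0 (1 higher and 1 lower at an unadjusted p under 0.05), and no marker with a peak was at 0 in all H3K4 libraries. Their part in the results below was not tested.

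The ribosomal protein genes carried clear H3K4 signal. Their peaks together took 0.445% and 0.454% of the reads in the knockdown libraries, 0.421% and 0.431% in the control libraries and 0.212% in the negative control, with an exact binomial 95% interval of 0.208% to 0.217% that covers counting error only. The median gene had 83.7 and 83.0 CPM after knockdown, 74.7 and 80.1 CPM in control cells and 39.2 CPM in the negative control. Knockdown signal reached 2-fold over the negative control or more in 31 of the 56 genes, and control signal in 26. The background over all peaks was 4.64% and 3.78%, over 1 peak per gene 15.6% and 12.7%, and over peaks of at least 2 kb 32.0% and 26.3%. Over peaks of 3 to 5 kb, close to the members in median width (3707 bp), it was 40.3% and 33.4%. The median log2 ratio to the negative control was 1.03 in the knockdown and 0.96 in the control libraries, and 0.74 and 0.69 over all peaks of at least 2 kb. There is 1 negative control library, so these ratios have no test. No gene reached 3-fold in either group. The size of a ratio rests on how the negative control is scaled: with TMM scaling over the 5 libraries the medians were 2.49 and 2.25, and 50 and 49 genes passed 2-fold.

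**Figure D1:**
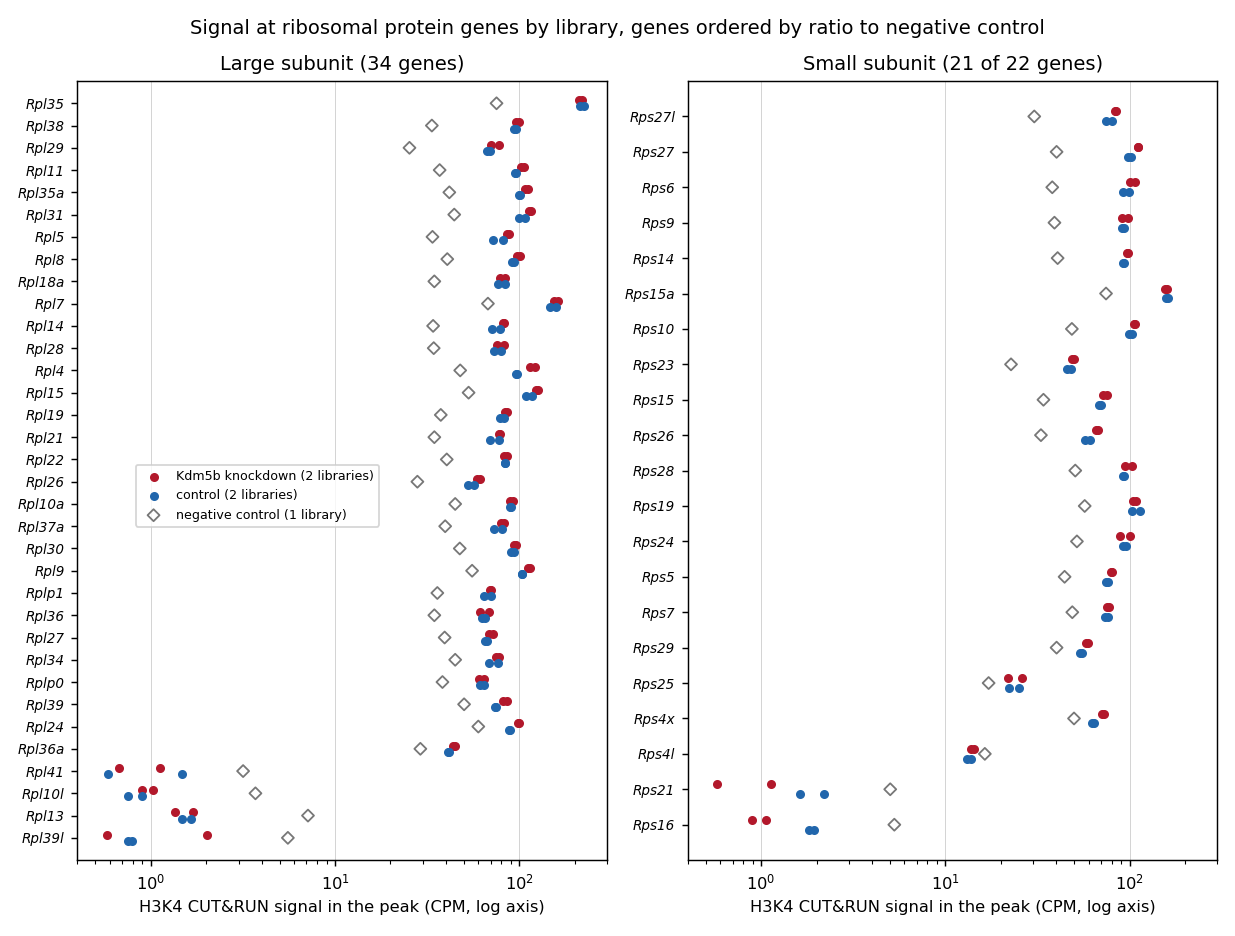
Signal in CPM (log axis) at 55 of the 56 ribosomal protein genes, large subunit left and small subunit right, with genes running down from the highest to the lowest log2 ratio of the H3K4 libraries to the negative control. Red points are the 2 knockdown libraries, blue points the 2 control libraries and open diamonds the negative control. At 48 genes the H3K4 points lie above the diamond, and at 7 genes, at the bottom of the panels, they lie below it.

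Rpl35, whose protein sits at the exit of the ribosome's peptide tunnel, had the highest signal of all members and the highest ratio. It held 212 and 220 CPM after knockdown, 214 and 226 CPM in control cells and 75.3 CPM in the negative control, 2.87-fold above it over the 4 H3K4 libraries. Its peak on chromosome 2 (38892004 to 38900355, GRCm39) was also the widest, at 8351 bp. Rpl38, known in mice for its part in translating Hox mRNAs, came next in ratio with 96.4 and 99.8 CPM after knockdown, 93.5 and 95.7 CPM in control cells and 33.6 CPM in the negative control. Rpl29 had 70.0 and 77.9 CPM, 67.1 and 69.0 CPM, and 25.4 CPM in the same libraries from a peak of only 2442 bp. In each of these genes all 4 H3K4 libraries lay far above the negative control, and their knockdown and control values were close together.

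Rpl11, whose protein joins the 5S RNA particle and binds Mdm2 when ribosome assembly fails, had 102 and 106 CPM after knockdown, 94.4 and 96.1 CPM in control cells and 37.0 CPM in the negative control. Rps27l, a paralog of Rps27 known as a p53 target, led the small subunit with 84.4 and 82.9 CPM, 74.8 and 80.6 CPM, and 30.4 CPM. Rps27 itself had 111 and 112 CPM after knockdown, 102 and 98.5 CPM in control cells and 40.2 CPM in the negative control. Both members of this pair thus lay at about the same ratio, 1.38 and 1.37 on the log2 scale. Rps6, the substrate of S6 kinase, had 100.2 and 107 CPM after knockdown against 91.7 and 99.5 CPM in control cells and 38.1 CPM in the negative control.

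The stalk genes Rplp0 and Rplp1, whose proteins recruit translation factors to the large subunit, were less far above background. Rplp0 had 64.3 and 60.4 CPM after knockdown, 64.7 and 61.6 CPM in control cells and 38.3 CPM in the negative control, a log2 ratio of 0.70. Rplp1 had 69.2 and 70.3 CPM, 64.0 and 70.5 CPM, and 35.9 CPM, a log2 ratio of 0.91. Among genes known from human Diamond-Blackfan anaemia, Rps19 had 104 and 108 CPM after knockdown, 113 and 103 CPM in control cells and 57.1 CPM in the negative control. In Rplp0, Rplp1 and Rps19 the knockdown and control libraries overlapped.

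The 3 members on the X chromosome had low ratios. Rps4x, whose protein belongs to the small subunit body, had 71.2 and 72.3 CPM after knockdown, 63.8 and 62.3 CPM in control cells and 49.9 CPM in the negative control. Rpl39 had 86.4 and 81.2 CPM, 74.2 and 74.5 CPM, and 50.2 CPM in the same libraries. Over Rps4x, Rpl39 and Rpl36a the log2 ratio to the negative control ranged from 0.42 to 0.64 with a median of 0.54, against a median of 1.08 over the 46 autosomal members of at least 2 kb. All X-linked peaks of at least 2 kb (328) had a median of 0.14 and the autosomal ones (11487) 0.73, so the 3 members share their low ratios with other peaks of that chromosome. Per kb, the 3 members had a median of 13.1 CPM in the negative control against 10.5 CPM in the autosomal members. Their H3K4 signal was lower as well, at a median of 17.7 CPM per kb against 21.6 CPM over all members of at least 2 kb. All X-linked peaks of at least 2 kb had a median of 13.4 CPM per kb in the H3K4 libraries, against 18.3 CPM in the autosomal ones. In the negative control these peaks had 11.7 against 10.5 CPM per kb. The peak described below that is named for Snora70, a gene nested in X-linked Rpl10, lay under the negative control.

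Most of the peaks were wide. The median width was 3694.5 bp, 49 of 56 peaks (87.5%) were at least 2 kb wide, against 41.1% over 1 peak per gene. The widest after Rpl35 were Rps15a (6997 bp) and Rpl7 (6014 bp), which also held the highest signals after it. Rps15a had 156 and 160.2 CPM after knockdown, 162 and 157 CPM in control cells and 74.5 CPM in the negative control. Rpl7 had 155 and 162 CPM, 147 and 159 CPM, and 67.6 CPM in the same libraries. Over the 49 wide members, width went with H3K4 signal (Pearson's r 0.84, Spearman's rho 0.65) and as much with the negative control (0.91 and 0.84). Width showed little relation to the ratio between them (0.17 and -0.03). Over all 11815 peaks of at least 2 kb the last pair was 0.27 and 0.36. These are correlations across genes of the same libraries and are descriptions only.

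**Figure D2:**
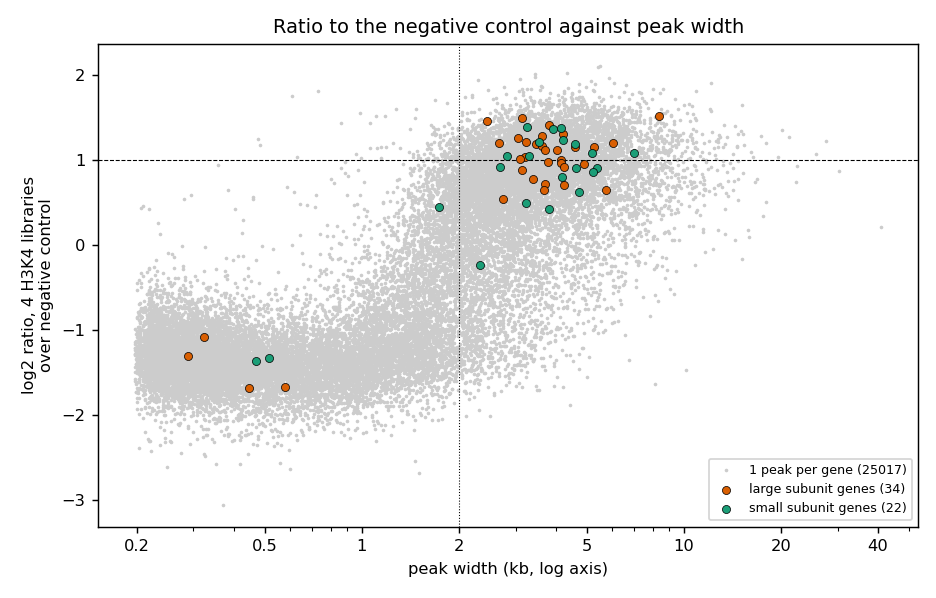
Log2 ratio of the 4 H3K4 libraries to the negative control against peak width in kb (log axis), for 1 peak per gene (grey) and the ribosomal protein genes (orange for the large, green for the small subunit). The dashed line is 2-fold, the dotted line 2 kb; 48 of the 49 members right of the dotted line lie above a ratio of 0, and the 6 members of 577 bp or less lie below -1.

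Per kb of peak, the wide members held a median of 21.6 CPM in the H3K4 libraries and 10.6 CPM in the negative control, against 18.1 and 10.5 CPM over all peaks of at least 2 kb. Rpl38 was the densest at 30.6 CPM per kb. Rps4l, a paralog of Rps4x, was the least dense of the wide members at 5.90 CPM per kb. It held 14.4 and 13.7 CPM after knockdown, 13.1 and 13.8 CPM in control cells and 16.4 CPM in the negative control, and was the only member of at least 2 kb that lay below the negative control. Rps25, a peak of 1740 bp, was the only narrower member above it.

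The other 6 members were represented by peaks of 577 bp or less with almost no signal. Rpl39l and Rpl10l, testis-enriched paralogs of Rpl39 and Rpl10, held 2.02 and 0.579 CPM and 1.03 and 0.901 CPM after knockdown, 0.748 and 0.789 CPM and 0.748 and 0.895 CPM in control cells, and 5.55 and 3.70 CPM in the negative control. The nearest peak of at least 2 kb was 188092 bp from Rpl39l and 883818 bp from Rpl10l. Rpl13, Rps16, Rps21 and Rpl41 are ordinary ribosomal protein genes, and here a wide peak lay close by under another name. The peak 106 bp from that of Rpl13 is named for Snord68, the peak 167 bp from that of Rps16 for AF357399 and the peak 6163 bp from that of Rps21 for Mir3091. RefSeq places these small RNA genes inside Rpl13, Rps16 and Rps21. The peak 248 bp from that of Rpl41 is named for Zc3h10, a neighbouring gene.

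The Snord68 peak held 87.7 and 86.6 CPM after knockdown, 80.3 and 82.0 CPM in control cells and 33.6 CPM in the negative control. The AF357399 peak held 78.9 and 85.8 CPM, 78.6 and 78.2 CPM, and 35.4 CPM in the same libraries. The peak of Rpl13 itself held 1.69 and 1.35 CPM after knockdown, 1.66 and 1.47 CPM in control cells and 7.13 CPM in the negative control, and that of Rps16 held 0.893 and 1.06 CPM, 1.82 and 1.95 CPM, and 5.28 CPM. The faint peak and the wide one thus lay side by side in both cases. Introns of ribosomal protein genes commonly house small nucleolar RNAs.

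The same was seen for genes without a peak of their own. Of the 27, 19 had a peak of at least 2 kb named for a small RNA gene that RefSeq places inside them. With the 3 members above this made 24 peaks, a set put together after the data were seen. The nesting holds for the small RNA genes, and the peaks themselves were not laid on the host genes. Of the 2 peaks named for genes inside Rpl27a, one ends at 109122000 and the other starts at 109160480 on chromosome 7. Over all 24 peaks the median log2 ratio was 1.01 in the knockdown and 0.97 in the control libraries, and the median width was 4579 bp. The highest was the peak named for LOC115489588, a gene inside Rpl7a. It had 267 and 269 CPM after knockdown, 265 and 257 CPM in control cells and 95.7 CPM in the negative control. The peak named for Snord35a, a gene inside Rpl13a, had 195 and 202 CPM, 195 and 204 CPM, and 86.1 CPM in the same libraries. The peak named for Snora70, a gene inside Rpl10, had 48.1 and 50.2 CPM, 47.4 and 47.2 CPM, and 54.4 CPM.

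The 63 further peaks of the members were narrow, with a median width of 290 bp and 0 of at least 2 kb. Their median signal was 0.863 CPM after knockdown, 1.07 CPM in control cells and 3.96 CPM in the negative control, and 0 of them lay above it. Of the 33 that were tested limma called 0 (0 higher and 3 lower at an unadjusted p under 0.05). By the rule, these further peaks are fainter than the peak that describes their gene. Of all 85275 peaks 75228 lay below the negative control. Of the 58072 tested peaks 2869 were higher and 6784 lower at that unadjusted level.

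Large and small subunit genes were close. The median log2 ratio to the negative control was 1.02 over the 34 large subunit genes and 0.91 over the 22 small subunit genes, a difference of 0.12, where the spread of that difference between libraries was 0.06 (SD, n = 4). Between the wide members alone the medians were 1.12 and 1.04. The 2-fold level over the negative control was reached by 21 large and 10 small subunit genes after knockdown (61.8% and 45.5%), and by 17 and 9 in control cells. The median width was 3654 bp in the large and 3860 bp in the small subunit, and the median signal 79.9 and 79.2 CPM over the 4 H3K4 libraries. Genes are not replicates, so no test is given.

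The knockdown was then compared with the control. Rpl4, whose protein lines the peptide exit tunnel, was the one ribosomal protein gene that passed. Its peak on chromosome 9 (64078360 to 64083612) held 121 and 115 CPM after knockdown, 97.3 and 96.6 CPM in control cells and 47.8 CPM in the negative control. Both knockdown libraries lay above both control libraries. It rose 1.21-fold (log2 fold change 0.28, SE 0.06, limma adjusted p = 0.00023). RefSeq places Zwilch, a kinetochore gene, and Snapc5 on either side of Rpl4, and signal of neighbouring genes cannot be told apart within a peak. The call was lost without knockdown library 3 (log2 fold change 0.24, limma adjusted p = 0.051), with TMM scaling (0.39, adjusted p = 0.23), with median centring (0.52, adjusted p = 0.64), with scaling on narrow background peaks (0.73, adjusted p = 0.79), without the intensity trend (0.28, adjusted p = 0.38) and with DESeq2 (0.50, adjusted p = 0.37).

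Of the 54 members that passed the filter on low values, 1 rose and 0 fell (1.85% and 0%). Over all 58072 tested peaks limma called 1.33% higher and 1.63% lower, over 1 peak per gene 3.40% and 1.98%, and over tested peaks of at least 2 kb 6.14% and 3.98%. At an unadjusted p under 0.05, 14 members (25.9%) were higher and 1 was lower. At that level 4.94% of all tested peaks and 12.4% over 1 peak per gene were higher. So were 21.3% of peaks of at least 2 kb and 24.4% of peaks of 3 to 5 kb. Lower were 6784 of all 58072 tested peaks, 2173 of 21835 over 1 peak per gene and 1300 of 11815 of at least 2 kb. On the recovered reads edgeR called 1 member higher and 0 lower. The members that missed the filter were Rpl10l and Rpl39l. SE values of the wide members ran from 0.04 to 0.12 on the log2 scale. A change of a few percent could thus not be detected in most of them. Larger differences did not pass either, such as Rps4x at 1.14-fold, Rpl5 at 1.13-fold and Rpl24 at 1.12-fold. A gene that did not pass is therefore not shown to be unchanged.

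**Figure D3:**
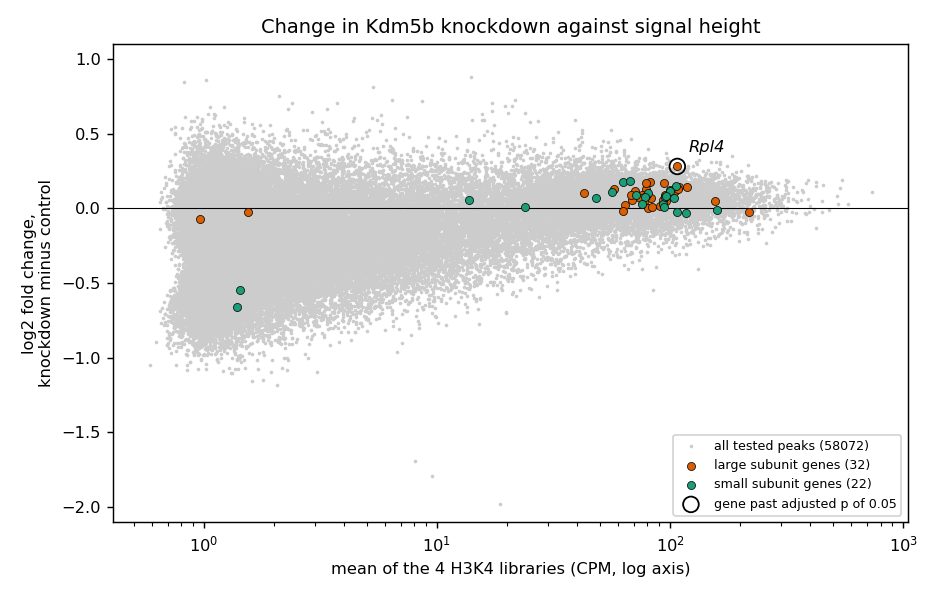
Log2 fold change, knockdown minus control, against the mean of the 4 H3K4 libraries in CPM (log axis) for all 58072 tested peaks (grey), 32 large subunit (orange) and 22 small subunit genes (green). Rpl4, circled, is the one member past an adjusted p of 0.05; the members at high signal lie between -0.03 and 0.28, and the 4 with the lowest signal between -0.66 and -0.03.

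The direction of the small differences was mostly positive. The median log2 fold change of the members was 0.07, or 1.05-fold, and 45 of 54 (83.3%) were above 0, against 30.6% of all tested peaks, 48.1% over 1 peak per gene and 62.8% of peaks of at least 2 kb. The spread of the members' median between libraries was 0.05 (SD), not much smaller than the median itself. In 30 members (55.6%) both knockdown libraries lay above both control libraries, against 12.1% of all tested peaks, 25.6% over 1 peak per gene and 39.2% of peaks of at least 2 kb. In 2 members, Rps21 and Rps16, both lay below, against 35.4% of all tested peaks, 25.9% over 1 peak per gene and 19.9% of peaks of at least 2 kb. Peaks of 3 to 5 kb, close to the members in median width, came nearer to them. Of these 68.7% were above 0, with a median of 0.06. Both knockdown libraries lay above both control libraries in 44.0% of them and below in 17.0%. Over peaks of at least 2 kb the fold change went more with the log2 ratio to the negative control (Pearson's r 0.53, Spearman's rho 0.43) than with width (0.10 and 0.14). Over the wide members its correlation with that ratio was 0.0044 and 0.05. The wide members had a median ratio of 1.05, against 0.72 over all peaks of at least 2 kb. Peaks of like ratio were not compared with the members. The size of the members' shift rests on the scaling, while their median was above 0 in every fit run. With quantile normalization the median was 0.02 and 35 of 54 were positive, and with median centring it was 0.31 and 52 were. Scaling on narrow background peaks moved the median of all tested peaks up by 0.31, median centring by 0.24, DESeq2 by 0.15, quantile normalization by 0.14 and TMM by 0.07. Relative to peaks of at least 2 kb, whose median was 0.04, the members lay 0.03 higher, and between 0.02 and 0.05 higher in every other fit run.

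Behind Rpl4 the largest differences did not pass. Rps4x had 71.2 and 72.3 CPM after knockdown against 63.8 and 62.3 CPM in control cells (log2 fold change 0.18, SE 0.07, limma adjusted p = 0.11). Rpl5, which enters the 5S RNA particle with Rpl11, had 86.2 and 87.8 CPM after knockdown against 72.2 and 82.0 CPM in control cells (0.17, SE 0.06, adjusted p = 0.098). Rps26, whose protein lies at the mRNA exit channel, had 66.1 and 67.5 CPM against 60.7 and 57.6 CPM, a log2 fold change of 0.17. In these 3 genes the groups did not overlap, but the differences did not pass the threshold.

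Rpl39 and Rpl24 came next. Rpl24, whose mutation underlies the Belly spot and tail mouse, had 100.1 and 98.9 CPM after knockdown against 88.0 and 89.1 CPM in control cells and 60.0 CPM in the negative control (0.17, SE 0.06, limma adjusted p = 0.098). For Rpl39, whose libraries are given above, the log2 fold change was 0.17. Rpl15 had 126 and 123 CPM against 108 and 117 CPM, a log2 fold change of 0.14. Rps27, Rpl11 and Rps6 had log2 fold changes of 0.15, 0.12 and 0.12. Rpl5 passed without control library 4 (limma adjusted p = 0.042) and Rpl24 with a filter of 5 CPM (adjusted p = 0.048), and a fit with the column numbers as a block, given with the other alternatives, called more of these genes.

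At the other end, the lowest fold changes belonged to the faint peaks of Rps21 and Rps16, where the wide peak lay under another name. Rps21 had 1.13 and 0.579 CPM after knockdown against 2.19 and 1.63 CPM in control cells and 5.02 CPM in the negative control (log2 fold change -0.66, SE 0.31, limma adjusted p = 0.26), and Rps16 had -0.54 (SE 0.30, adjusted p = 0.35). At the wide peaks named for small RNA genes inside the same genes the values were 0.03 and 0.07. Rpl41, with 1.13 and 0.676 CPM against 0.588 and 1.47 CPM, and Rpl13 had -0.07 and -0.03. Among the strong peaks, Rpl35 (log2 fold change -0.03, SE 0.04) and Rps19 (-0.03, SE 0.06) were near the low end. Rplp0 had -0.02 (SE 0.07), Rplp1 0.05 (SE 0.07) and Rps14, known from the human 5q- syndrome, 0.08 (SE 0.06).

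Between the subunits the median log2 fold change was 0.08 over 32 large and 0.07 over 22 small subunit genes. Their difference of 0.02 was as large as its spread between libraries (SD 0.02), and it was -0.0046 without control library 3. Of the 24 peaks named for small RNA genes inside ribosomal protein genes, 21 (87.5%) had a positive fold change and the median was 0.06. Limma called 0 of them higher and 1 lower (4.17%). Over all peaks of at least 2 kb 62.8% were positive, the median was 0.04, and 6.14% were called higher and 3.98% lower. The peak called lower among the 24 was the one named for Snord83b, a gene inside Rpl3. It lay below the negative control (4.89 and 4.63 CPM after knockdown, 7.86 and 7.32 CPM in control cells, 20.3 CPM in the negative control, log2 fold change -0.58, SE 0.17, limma adjusted p = 0.033). A second and stronger peak, named for LOC115488570, which RefSeq also places inside Rpl3, had a log2 fold change of 0.0026.

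**Figure D4:**
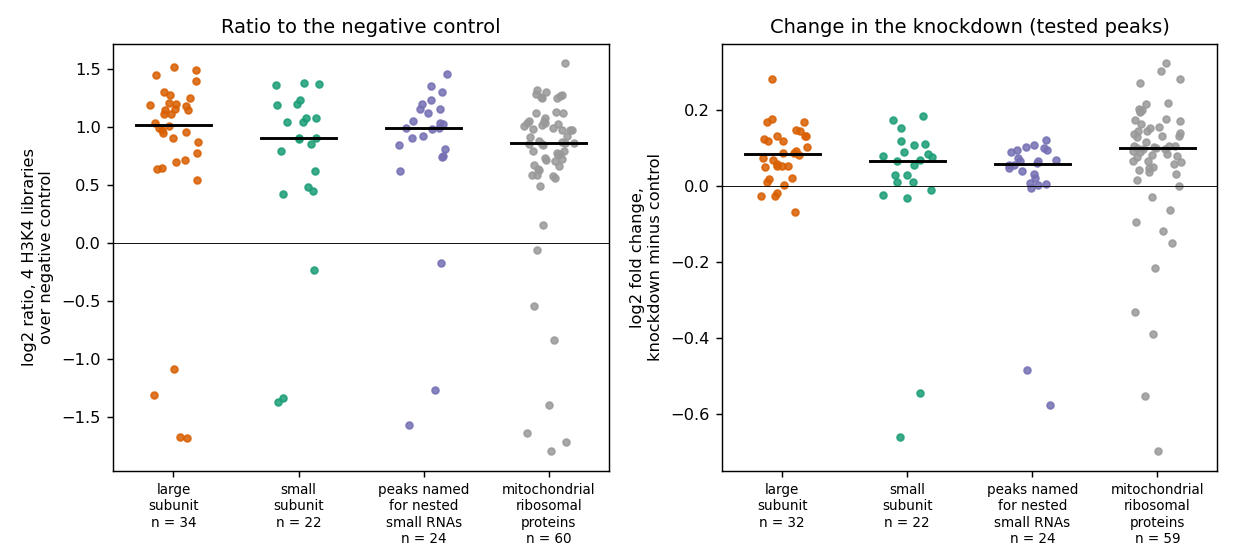
Left, log2 ratio of the 4 H3K4 libraries to the negative control, and right, log2 fold change of knockdown minus control, for large and small subunit genes, the 24 wide peaks named for small RNA genes inside ribosomal protein genes, and mitochondrial ribosomal protein genes. Points are genes or peaks and bars are medians: 1.02, 0.91, 0.99 and 0.86 on the left, 0.08, 0.07, 0.06 and 0.10 on the right.

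Other genes of the ribosome and of translation differed by similar amounts. Among the 60 mitochondrial ribosomal protein genes, which serve a separate ribosome, the median log2 ratio to the negative control was 0.93 in the knockdown and 0.81 in the control libraries, and the median width 2365.5 bp. Of 59 tested, 4 rose and 0 fell (6.78% higher), with a median log2 fold change of 0.10. Mrpl13 was the clearest, with 87.0 and 86.7 CPM after knockdown, 69.5 and 69.2 CPM in control cells and 32.2 CPM in the negative control (0.32, SE 0.06, limma adjusted p = 0.00015). The other 3 were Mrps31, Mrpl35 and Mrpl19. Whether the 2 ribosomes' genes differ from each other was not tested.

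Of 19 translation factor and other TOP mRNA genes with a peak, 3 rose and 0 fell (15.8% higher), with a median of 0.09. As background for this and the other lists, limma called 3.40% higher and 1.98% lower over 1 peak per gene. Over peaks of at least 2 kb it called 6.14% and 3.98%. Eif3e, a subunit of the initiation factor that binds the small subunit, had 70.3 and 65.6 CPM after knockdown against 54.7 and 56.5 CPM in control cells (log2 fold change 0.29, SE 0.07, limma adjusted p = 0.0040). Eif3a, of the same complex, had 151 and 150.2 CPM against 132 and 131 CPM, and Pabpc1, the poly(A)-binding protein gene, had 118 and 119 CPM against 99.1 and 110.0 CPM. Each of the 3 had both knockdown libraries above both control libraries.

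Of 26 tested ribosome biogenesis genes limma called 0 higher (5 at an unadjusted p under 0.05) and 1 lower, the processing factor gene Rrp9 at a faint peak (2.54 and 1.64 CPM after knockdown, 5.40 and 3.11 CPM in control cells, 10.04 CPM in the negative control), with a median of 0.09. Of 11 RNA polymerase I genes 0 passed, with 2 higher and 2 lower at an unadjusted p under 0.05 and a median of 0.05. Among 9 regulators 1 rose and 0 fell: Rptor, which encodes the mTORC1 subunit Raptor, had 73.4 and 78.1 CPM after knockdown, 62.4 and 66.9 CPM in control cells and 20.6 CPM in the negative control (0.23, SE 0.07, limma adjusted p = 0.027). Myc, a driver of ribosome production, had a log2 fold change of 0.08 and did not pass. Of 5 related genes outside the rule limma called 0, with 2 higher and 0 lower at an unadjusted p under 0.05. They include Fau, which encodes a ribosomal protein fused to a ubiquitin-like protein, with a log2 fold change of 0.13, and Rps3a1 with a faint peak at -0.53.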

How the data were processed

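Per the labels and headers, the authors deposited CPM for 5 libraries in a single peak table. Trim Galore and GRCm39 are named in the submitters' processing notes. What aligned, called, counted and annotated the peaks, and how reads with several matches were treated, is not given in the sources used here, so members with near-identical copies are uncertain. 2 lines came emptied. All 5 value columns were used, 0 were left out. The H3K4 columns carry numbers that the titles do not, so a column stands for its group. Whole reads were recovered for 100% of the values (tolerance 1e-06), and edgeR 4.0.16 then called 634 peaks higher and 712 lower.

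Ratios and tests used log2(CPM + 1), which shrinks fold changes where signal is low. The filter kept 58072 of 85275 peaks, those that reach 1 CPM in 2 or more H3K4 libraries, for limma 3.58.1 (R 4.3.3; lmFit, eBayes with trend, 2-sided, no block, Benjamini-Hochberg over all tested peaks, threshold 0.05), and SE values are limma's. Scripts were tested on simulated data. Width is end minus start as the table gives them. RefSeq on GRCm38.p6 gave symbols, which genes lie inside others, and start sequences, for 43 of 56 members.

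The members, gene lists and tests were chosen with earlier results of these data known. Named genes are the members past the threshold, the 6 largest and 6 smallest fold changes, the 5 largest and smallest ratios, the 3 widest and narrowest, the 4 highest and lowest, and a fixed set. Other members, Rps25, Rpl36a, genes of other lists, their peaks and Zwilch were named after their values were seen. Values of 2 genes, 1 of them a member that stays in the counts and medians, are not reported here.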

Additional observations from a re-analysis of the deposited data

How the results depend on the processing

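The count of 1 member called higher fell to 0 under DESeq2, limma without a trend, TMM, median centring and narrow-peak scaling. It was 2 with a filter of 5 CPM and 3 at a threshold of 0.1, and it ranged from 0 to 2 when a library was left out. A replicate block on the column numbers gave 9, among them Rpl4 and, with limma adjusted p-values of 0.024 to 0.049, Rpl24, Rpl5, Rps4x, Rpl39, Rps27, Rpl15 and Rps26. Same-numbered libraries shared deviations only weakly (correlation over peaks 0.12), and with 2 numbers a pairing was not shown. The count of members called lower stayed 0 except when peaks named for nested genes were added, an alternative chosen after seeing the data, which gave 1. Over all peaks, where limma called 773 higher and 947 lower, the block gave 1578 and 2275, TMM 55 and 34, median centring 28 and 3, DESeq2 16 and 3, and leaving out a library between 155 and 371 higher and between 185 and 476 lower, while 0 passed without a trend (8226 at an unadjusted p under 0.05) or with scaling on narrow background peaks (1772). The members' median log2 fold change became 0.52 when libraries were scaled on narrow background peaks, 0.31 when medians were centred and 0.18 under TMM. It ranged from 0.05 to 0.10 when a library was left out, and the large minus small subunit difference from -0.0046 to 0.043. The cause was not tested.

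The median ratio to the negative control in the knockdown and control libraries was 1.04 and 0.97 with a pseudocount of 0.5, 0.97 and 0.89 with 5, 2.49 and 2.25 with TMM over the 5 libraries, 3.23 and 2.67 when scaled on narrow background peaks, and 1.08 and 1.01 over members of at least 2 kb alone, a choice made after seeing the data. It ranged from 1.03 to 1.04 and from 0.98 to 0.99 when a library of the group was left out. At least 2-fold above the negative control stood 50 and 49 members with TMM and 50 and 50 when scaled on narrow background peaks. At least 1.5-fold stood 43 in the control libraries, and at least 3-fold 0 and 0. The negative control has the fewest reads, and 3 reads correspond to 0.793 CPM there, which limits the ratios of faint peaks. Further values stayed within the spread between libraries or within 1.5 times a count. Among them, the members' median log2 fold change was 0.02 with quantile normalization. The counts at 2-fold were 25 and 21 with a pseudocount of 5. Among values for single genes 9 newly passed the threshold, 6 lost it and 423 did neither.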
